A study of Drosophila melanogaster with 4 samples.

Results

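The piRNA source loci flamenco, 20A and 38C are stretches of the Drosophila melanogaster genome rich in transposon remnants, and here they were examined for trimethylation of lysine 9 of histone H3 (H3K9me3) in heads of adult flies. The loci were taken by position on FlyBase release 5: flamenco at X 21502918 to 21684449 (182 kb), 20A at X 21392175 to 21431907 (39.7 kb) and 38C at 2L 20148259 to 20227581 (79.3 kb). Cut into windows of 1 kb, they gave 302 windows of 139719 in the series, of which 182 were in flamenco, 40 in 20A and 80 in 38C. The value of a window is the percentage of its bases inside the enriched clusters that the authors deposited. The loci were chosen by position, at a time when their coverage in these lists was already known, so coverage is given as a description, without a test.

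H3K9me3 was mapped by chromatin immunoprecipitation and sequencing (ChIP-seq) in head nuclei of wild-type Oregon-R flies, labelled mixed adult and raised in population cages on a cycle of 22 days. The 4 samples are 2 H3K9me3 ChIP libraries and 2 input libraries with the same replicate numbers. Cluster lists of both ChIP libraries (5083 clusters in replicate 1, 4595 in replicate 2) and of the series as a whole (7929 clusters, called the combined list) were analysed; no lists of the inputs were used here. The labels do not give the sex, or say whether the replicates came from separate cages or collections, and differences between replicates may thus be technical only. The lists hold no read counts, so the depth behind a value is unknown. Every sample is a head sample of the same strain, and the labelled tissue could not be checked, since a cluster list holds no expression.

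PIWI-interacting RNAs (piRNAs) are small RNAs, cut from long transcripts of such loci, that guide PIWI proteins to matching transposons and silence them in the gonads. The X-linked locus flamenco is transcribed from one strand in the somatic follicle cells of the ovary and is known for controlling gypsy-family retrotransposons such as gypsy, ZAM and Idefix. 20A is also transcribed from one strand but is used in germline cells. 38C is a dual-strand locus, transcribed from both strands in the germline, a type that depends on the heterochromatin protein 1 homologue Rhino, which binds H3K9me3. Heads contain neither follicle cells nor germline, so these data describe the loci outside the tissues in which they are known to make piRNAs.

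flamenco was the most covered of the loci, 38C came next and 20A was mostly outside clusters. Replicate 1 had 54.8% of the flamenco sequence inside clusters, replicate 2 had 56.5% and the combined list 69.7%; the mean of the replicates was 55.6% ± 1.19 (SD, n = 2 ChIP libraries, as for the values that follow). For 38C the values were 44.2% and 47.9% in the replicates, with a mean of 46.0% ± 2.64, and 68.0% in the combined list. For 20A they were 16.0% and 21.2%, with a mean of 18.6% ± 3.70, and 26.3% in the combined list. The replicates of any one locus did not overlap with those of another.

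Per library, coverage of flamenco exceeded that of 20A by 37.0 ± 2.51 percentage points and that of 38C by 9.60 ± 1.45 points. Coverage of 38C exceeded that of 20A by 27.4 ± 1.06 points. All 3 differences were larger than the SD between replicates. The first and the last were also large in the combined list, at 43.3 and 41.7 points, but flamenco and 38C differed there by only 1.69 points. Without clusters scoring below their list's median, the difference of flamenco from 38C was 16.3 points.

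**Figure D1:**
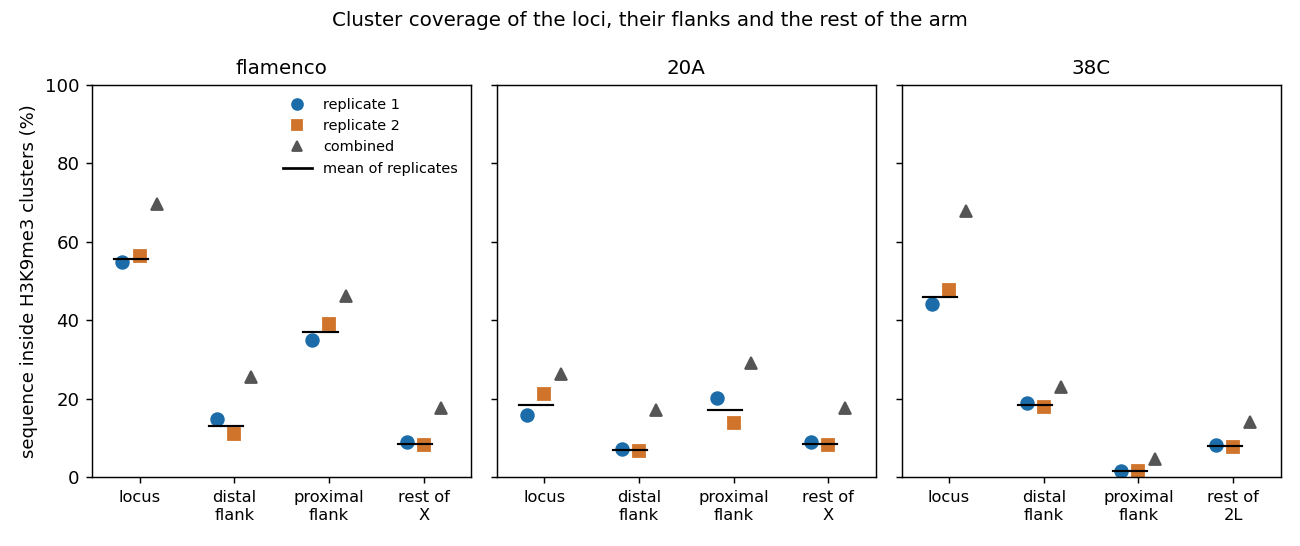
Percentage of sequence inside H3K9me3 clusters (vertical axis) in each locus, in the 200 kb distal and proximal to it, and in the rest of its chromosome arm; circles are replicate 1, squares replicate 2, triangles the combined list and lines the mean of the replicates. flamenco (55.6%) and 38C (46.0%) stand above both of their flanks in every list, whereas 20A (18.6%) overlaps the range of its proximal flank.

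Single windows were mostly all or nothing, in the flanks as in the loci. A window is partly covered only where a cluster starts or ends in it, so this depends on the window size as well. Of the 182 flamenco windows, 77 were fully covered in both replicates and 58 had no covered base in either. Of the 80 windows of 38C, 29 were fully covered in both and 36 were empty in both, and of the 40 windows of 20A, 5 were full and 28 empty. Of the 362 windows beside flamenco, 53 were full in both and 226 empty in both. Beside 38C these counts were 27 and 343 of 400, and beside 20A 10 and 216 of 272. Counting windows at least 50% covered in both replicates gave 92 in flamenco (50.5%), 35 in 38C (43.75%) and 6 in 20A (15.0%). Over the whole X, 6.29% of windows met this threshold, over 2L 6.51%, and over the 13 sequences with clusters 14.1%. In the flanks it was met in both replicates by 22.4% of the windows beside flamenco, 8.25% of those beside 38C and 5.51% of those beside 20A. A further 20 windows of flamenco, 5 of 38C and 1 of 20A met it in 1 replicate only. In the combined list the threshold was met by 129 flamenco windows (70.9%), 54 windows of 38C (67.5%) and 11 of 20A (27.5%), against 18.8% of the windows of the X, 14.4% of those of 2L and 24.1% of those of all 13 sequences.

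**Figure D2:**
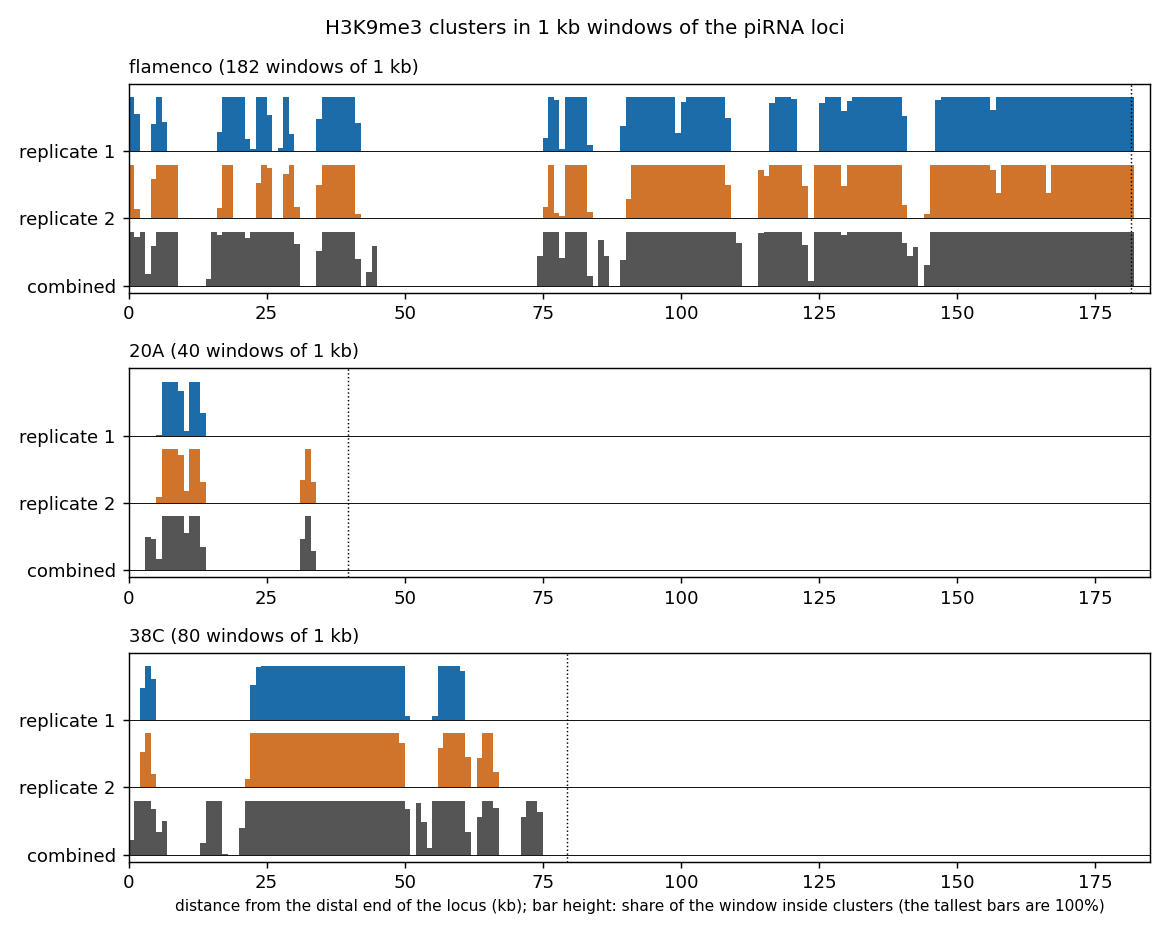
Share of each 1 kb window inside clusters along flamenco, 20A and 38C, by distance in kb from the distal end of the locus; rows are replicate 1, replicate 2 and the combined list, the tallest bars mark windows that are 100% covered, and the dotted line is the proximal end. A long uncovered stretch on the telomere side of flamenco recurs in every list. So do the single broad block of 38C and the short covered stretch near the distal end of 20A.

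The locus flamenco was unevenly covered along its length, and the side toward the centromere held most of the covered sequence. In the 90.8 kb nearest the centromere 79.8% of the sequence was covered in replicate 1 and 85.3% in replicate 2, against 29.8% and 27.6% in the 90.8 kb on the telomere side. The combined list gave 92.3% and 47.0% for the same parts. The most proximal sections of 10 kb were nearly filled: those from 150 to 160 kb, 160 to 170 kb and 170 to 180 kb from the distal end were 95.7% ± 2.76, 97.4% ± 3.69 and 100% covered. The distal end of the locus is the one beside DIP1, which encodes a double-stranded RNA-binding protein, and transcription of flamenco is known to start there. In the RefSeq annotation of release 6, DIP1 is the nearest protein-coding gene on that side of the noncoding gene lncRNA:flam, with the short lncRNA:CR44712 between them. The first 10 kb of the locus on this side was 37.1% covered in replicate 1 and 59.1% in replicate 2. The clusters lie on release 5, so they were not assigned to parts of these genes.

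The longest uncovered stretch of flamenco lay within the 90.8 kb on the telomere side. Neither replicate called 34.2 kb (X 21544434 to 21578672), of which the combined list covered 6.75%, and 29.7 kb of it (21547656 to 21577361, singled out after its values were seen) had no cluster in any list. The next such stretches were much shorter. One of 7.64 kb lay at 21511928 to 21519570 and was 22.6% covered in the combined list, and one of 6.42 kb lay at 21586040 to 21592457 and was 23.1% covered there. Assembly gaps and repeats to which reads cannot be placed were not examined, so an uncovered stretch cannot be read as unmarked chromatin. Proximal to the 34.2 kb stretch, 77.1% ± 2.08 of the remaining 106 kb was covered, and distal to it 46.8% ± 0.11 of 41.5 kb. Both parts were cut at the edges of that stretch, so their shares follow partly from the cut.

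Cluster scores in flamenco followed the same course. The score is the authors' own value per cluster, on a scale they do not state, so scores are given to describe and rank clusters, and a difference in score has no known size. Distal to the uncovered stretch the 6 clusters of each replicate had median scores of 1.03 in replicate 1 and 1.08 in replicate 2. Proximal to it the medians were 1.82 over 9 clusters and 1.76 over 10 clusters. The highest score of the locus belonged to a cluster of about 4 kb just proximal to that stretch, at X 21581888 to 21586031 in replicate 1 and 21581877 to 21586039 in replicate 2. It scored 2.39 and 2.44, rank 3 of the 849 clusters of the X in replicate 1 and rank 7 of 795 in replicate 2. The combined list placed it at rank 2 of 1662 on the X, with a score of 2.42 (21581778 to 21586100). In all, 11 of the 15 flamenco clusters of replicate 1 and 12 of the 16 of replicate 2 were in the top 5% of the scores of the X in their list.

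**Figure D3:**
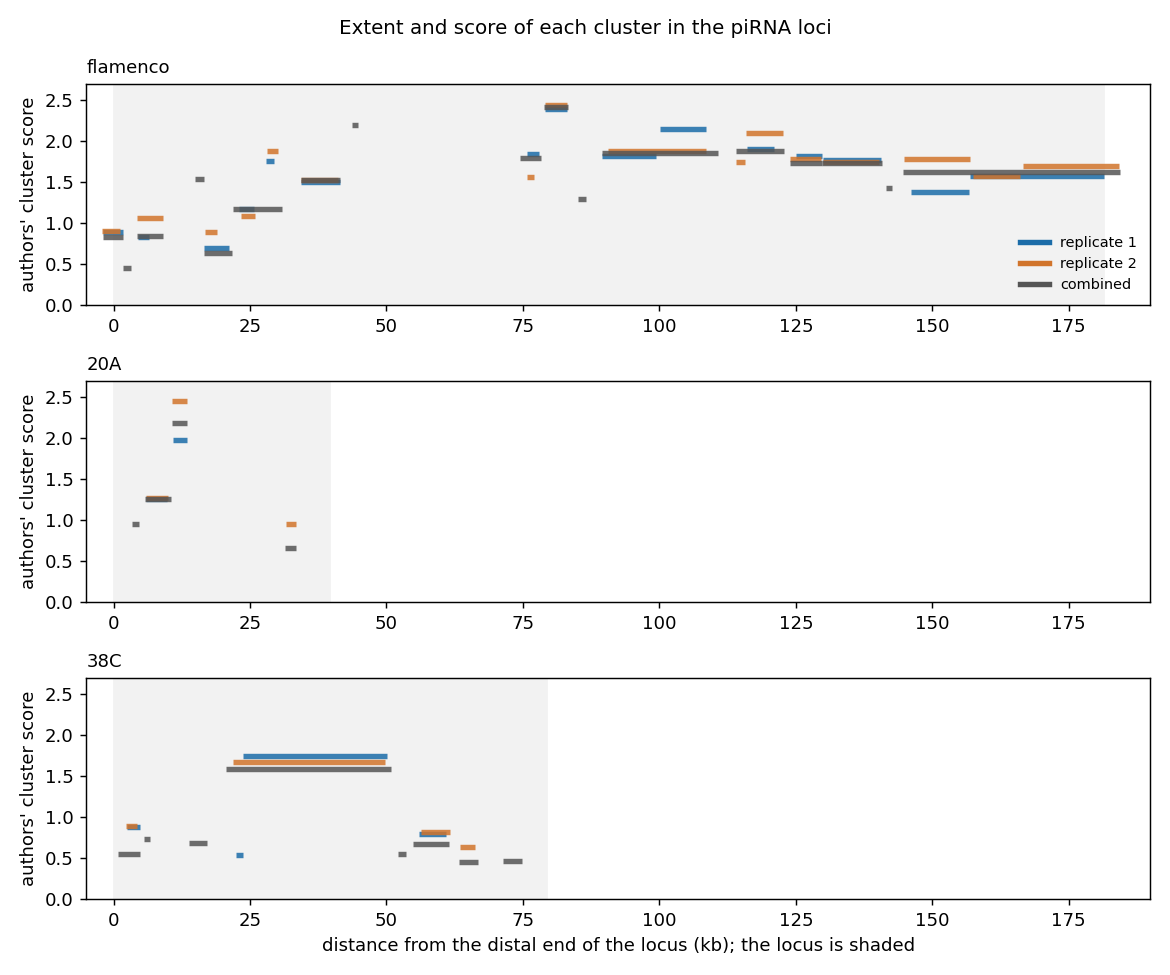
Each horizontal line is a cluster, drawn from its start to its end in kb from the distal end of the locus (horizontal axis) at the score the authors gave it (vertical axis), in blue for replicate 1, orange for replicate 2 and grey for the combined list; the locus is shaded. In flamenco the clusters proximal to the long uncovered stretch score higher than most distal ones. In 38C a single broad block scores above all others, and in 20A the highest score belongs to a cluster of about 2.5 kb.

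The ends of flamenco were both crossed by clusters in every list. At the proximal end replicate 1 had its widest cluster of the X, 24.6 kb from 21659816 to 21684457, which stopped 8 bp past the end of the locus. Replicate 2 had a cluster of 17.7 kb there (21669540 to 21687206), rank 3 by width on the X, and its widest cluster of the locus was one of 18.0 kb at 21593553 to 21611530. The combined list joined the region into 39.9 kb (21647534 to 21687397). With clusters up to 1 kb apart joined, covered sequence of replicate 1 ran to 21687350, that of replicate 2 to 21687206 and that of the combined list to 21687397, no more than 2.95 kb beyond the locus. Stretches of 71.4, 71.7 and 71.1 kb without a cluster followed in these lists. At the distal end a cluster of 3.54 kb (21501061 to 21504599, score 0.89) in replicate 1, of 3.22 kb (21500870 to 21504091, score 0.91) in replicate 2 and of 3.70 kb (21500896 to 21504590, score 0.83) in the combined list reached about 2 kb outside the locus.

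Against its surroundings flamenco was more covered, by an amount that depended on the side. The 200 kb on the centromere side was 35.1% covered in replicate 1 and 39.1% in replicate 2, and the difference of flamenco from it was 18.5 ± 1.63 points. The 200 kb on the telomere side holds 20A. Without the bases of 20A it was 14.9% and 11.2% covered, and the difference was 42.6 ± 3.82 points. Over both sides the difference was 29.2 ± 0.80 points, and in the combined list it was 32.6 points. The proximal flank was itself uneven: bins of 20 kb between 20 and 60 kb from the locus had no covered base in any list, and the bin from 100 to 120 kb was 93.3% ± 0.01 covered. That second domain held the longest flank cluster of the combined list, 26.4 kb at 21785330 to 21811713 with a score of 1.71. On the telomere side coverage dropped over the first 60 kb, with 52.7% and 30.3% in the first 20 kb, 18.9% and 16.4% in the next 20 kb, and 0% and 2.97% in the 20 kb after that. The longest combined cluster of that flank, 6.60 kb (21329769 to 21336366, score 1.02), lay 167 kb from flamenco and 55.8 kb from 20A.

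Outside flamenco, 20A and their flanks the X was 8.65% ± 0.56 covered, with a median score of 0.78. flamenco had 8.54 ± 0.39 clusters per 100 kb against 3.58 ± 0.19 on the rest of the X. In the combined list these were closer, at 9.36 against 7.39. In the replicates the median width of the flamenco clusters was 4888 bp ± 374, against 1948 bp ± 36.1. Their median score was 1.74 ± 0.03, against 0.78 ± 0.004. The proximal flank of flamenco had values close to those of the locus, with 8.00 ± 1.41 clusters per 100 kb, a median width of 4296 bp ± 2272 and a median score of 1.72 ± 0.01, so they were not particular to flamenco.

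**Figure D4:**
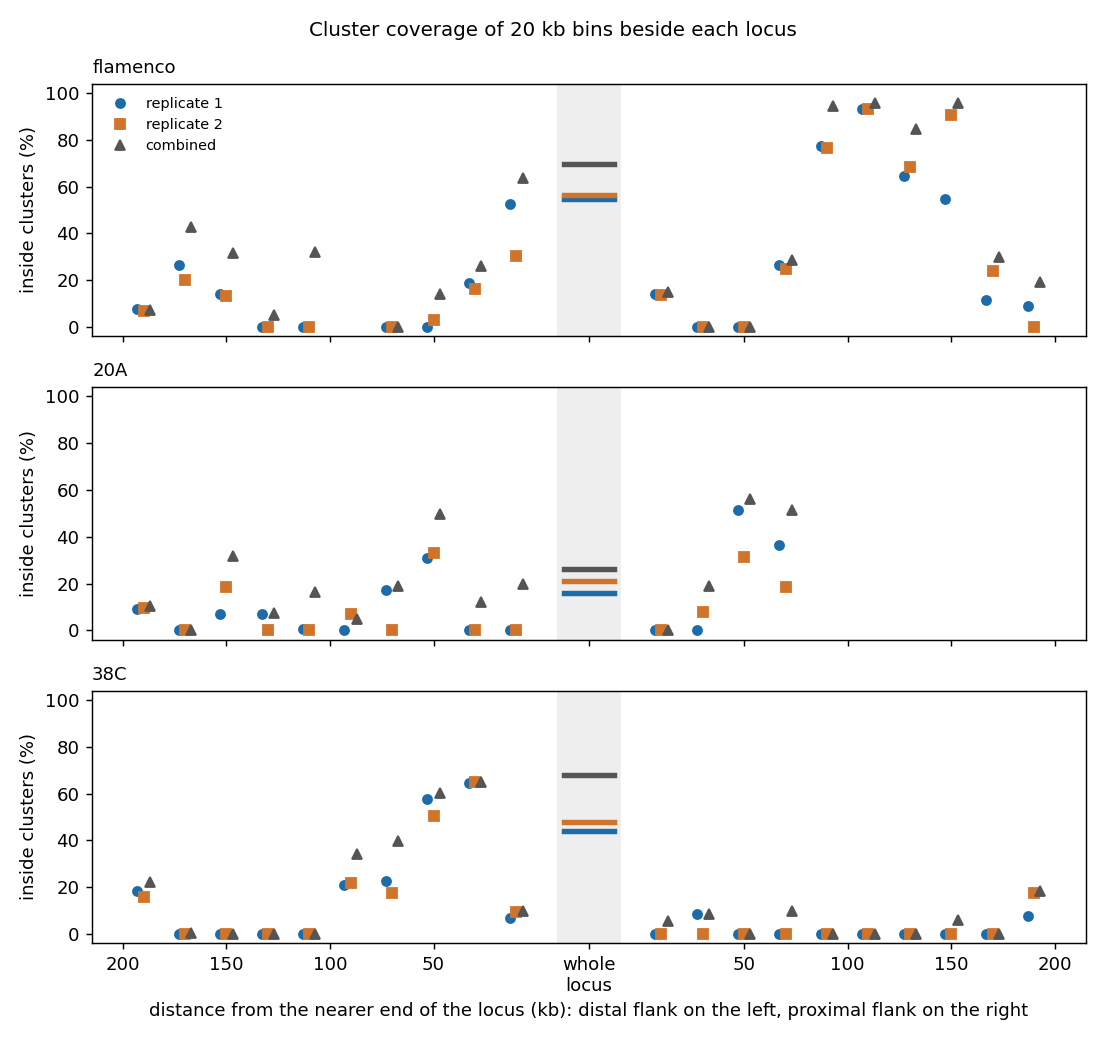
Percentage inside clusters (vertical axis) of bins of 20 kb on either side of each locus, by distance from its nearer end in kb, with the telomere side on the left; circles are replicate 1, squares replicate 2 and triangles the combined list, and horizontal lines in the shaded centre give the whole locus. Bases of the other piRNA locus were removed, so no bin of 20A lies more than 80 kb away on the proximal side. Beside flamenco, coverage is 0% between 20 and 60 kb on the proximal side and 93.3% between 100 and 120 kb, and beside 38C nearly all the covered flank is on the distal side.

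38C was built around one broad block. A cluster that measured 26.3 kb (2L 20171991 to 20198325) in replicate 1, 28.0 kb (20170105 to 20198076) in replicate 2, and 30.3 kb (20168768 to 20199106) for the combined list was both the widest and the highest-scoring of the locus, with scores of 1.75, 1.67 and 1.58. In replicate 1 it ranked 17 of the 557 clusters of 2L by score and 11 by width, and in replicate 2 it ranked 29 of 491 by score and 9 by width. The proximal edge of the block differed by 249 bp between the replicates. In replicate 1 the block was preceded, after a gap of 14 bp, by a cluster of 1.37 kb, which replicate 2 had as part of the block. The sections from 30 to 40 kb and 40 to 50 kb from the distal end were 100% and 99.1% ± 1.29 covered.

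Outside the block, replicate 1 covered 16.4% of 38C, replicate 2 covered 19.5% and the combined list 48.1%. The replicates shared a cluster of about 2 kb near the distal end (score 0.89 in both) and one of about 5 kb proximal to the block, with scores of 0.79 in replicate 1 and 0.82 in replicate 2. Its longest uncovered stretch in the replicates, 17.1 kb at 20153016 to 20170104, was 33.4% covered in the combined list. A stretch of 13.0 kb at the proximal end (20214539 to 20227581) was 31.2% covered there, and one of 5.85 kb beside the block (20198326 to 20204177) was 58.0% covered. No cluster crossed either end of the locus in any list.

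The flanks of 38C were unlike each other. The 200 kb on the telomere side was 19.1% and 17.9% covered in replicates 1 and 2, and the 200 kb on the centromere side 1.61% and 1.75%. Coverage of 38C was 27.5 ± 3.44 points above that of the distal flank and 44.3 ± 2.53 points above that of the proximal flank. Over both flanks together the difference was 35.9 ± 2.98 points; it was 54.0 points in the combined list and 21.4 points with flanks of 50 kb. On the telomere side the bins at 20 to 40 kb and 40 to 60 kb were 64.7% ± 0.24 and 54.0% ± 5.01 covered, more than the 46.0% of 38C as a whole. In the combined list the order was the other way, with 65.0% and 60.2% in these bins and 68.0% in 38C. They held a cluster of 22.4 kb in the combined list (20098812 to 20121260, score 1.34), of which 97.7% was covered in replicate 1 and 99.8% in replicate 2. This second domain lay 27.0 kb from 38C, and 38C was separated from the first cluster on that side by 12.8 kb to 13.1 kb in the 3 lists. On the centromere side the widest combined cluster was 1.93 kb (20296815 to 20298745, score 0.43), which neither replicate had. The rest of the 2L sequence, which takes in its pericentric end but not the separate sequence 2LHet, was 8.08% ± 0.31 covered.

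The covered sequence of 20A lay mainly toward its telomere-side end. In replicate 1 it held a cluster of 3.85 kb (X 21398158 to 21402002, score 1.25) and one of 2.50 kb (21403090 to 21405589, score 1.97). In replicate 2 it held the same pair at 3.995 kb (21398068 to 21402062, score 1.27) and 2.61 kb (21402963 to 21405571, score 2.45). The combined list had them at 4.68 kb (21397965 to 21402645, score 1.26) and 2.64 kb (21402958 to 21405601, score 2.19). The narrower one was among the highest-scoring clusters of the X, at rank 8 of 849 in replicate 1, 6 of 795 in replicate 2 and 5 of 1662 in the combined list. Both lie within the 13.4 kb nearest the telomere-side end, which was 48.3% ± 1.37 covered. That part was cut where the longest uncovered stretch begins, so its share follows partly from the cut. With 20A divided at its midpoint, the 19.9 kb on the telomere side was 32.6% ± 0.92 covered and the rest 4.58% ± 6.47. The replicates left 18.2 kb uncovered at 21405590 to 21423752, of which 0.903% was covered in the combined list. They also left 6.34 kb at the proximal end (21425571 to 21431907), with 0% in the combined list, and 5.89 kb at the distal end (21392175 to 21398067), with 22.0%.

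The covered share of 20A was not clearly set apart from that of its flanks taken as a whole. Its distal flank was 7.17% and 6.82% covered in replicates 1 and 2, and 20A exceeded it by 8.80 and 14.4 points. Its proximal flank could be taken only up to flamenco, over 71.0 kb, and was 20.2% covered in replicate 1 and 14.0% in replicate 2. There 20A was 4.18 points below the flank in replicate 1 (a difference of -4.18) and 7.23 points above it in replicate 2, and the combined list gave -2.93 points. Over both flanks the difference was 8.95 ± 5.02 points and was positive in each list, at 5.40, 12.5 and 5.97 points. With flanks of 50 kb it was 12.1 ± 3.74 points. When the bases of flamenco were left in the proximal flank the mean difference was -1.57 ± 4.02 points. In the first 20 kb on either side of 20A the replicates had no covered base. The combined list gave 19.9% there on the distal side and 0% on the proximal side. The proximal bin at 40 to 60 kb, toward flamenco, was 41.5% ± 14.2 covered. The longest proximal flank cluster was 4.24 kb (21482877 to 21487116, score 0.81), in a group of clusters close to flamenco. The mean score per covered base was higher in 20A than in its flanks, at 1.54 and 1.57 in replicates 1 and 2 against 0.92 and 0.87. Not every 20A cluster stood above the flank clusters. The highest flank scores were 1.55 and 1.31, above the 1.25 and 1.27 of the wider cluster of the pair in 20A. No cluster crossed an end of 20A.

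Replicates agreed more closely on the sequence of each locus than on that of its own flanks, though little more than on the most covered flanks. The Jaccard index, which is the sequence covered in both replicates over that covered in either, was 0.834 in flamenco and 0.691 in its flanks, 0.750 in 20A and 0.426 in its flanks, and 0.867 in 38C and 0.777 in its flanks. Taken by side, distal then proximal, it was 0.429 and 0.784 beside flamenco, 0.381 and 0.481 beside 20A, and 0.839 and 0.296 beside 38C. The proximal flank of flamenco was thus above 20A, and close agreement was not particular to the loci. On the rest of the X the index was 0.479 and on the rest of 2L 0.632. The index rises with coverage and cluster width, and was not compared at equal coverage. All 15 flamenco clusters of replicate 1, both of 20A and all 4 of 38C overlapped a cluster of replicate 2. In the other direction 15 of 16, 2 of 3 and 3 of 4 did. The same share over all clusters of the X and 2L was not counted, so these numbers do not set the loci apart. The 3 clusters that replicate 1 lacked, singled out after their values were seen, were 1.64 kb in flamenco (21617024 to 21618666, score 1.74), 1.82 kb in 20A (21423753 to 21425570, score 0.95) and 2.83 kb in 38C (20211714 to 20214538, score 0.64). The one in 20A accounts for most of the gap between the replicates there.

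The combined list added sequence to every locus. Of its covered sequence, 13.0% in flamenco (16.4 kb), 19.6% in 20A (2.05 kb) and 27.75% in 38C (15.0 kb) was in neither replicate, against 36.1% on the rest of the X and 31.6% on the rest of 2L. Neither replicate had 5 of its 17 flamenco clusters, 1 of its 4 in 20A and 4 of its 8 in 38C. This share was not counted over all clusters of the combined list, so the counts describe the loci alone. Among the 5 in flamenco was a cluster of 1.00 kb (21546655 to 21547655), singled out after its values were seen. It lay at the distal edge of the 29.7 kb without a cluster in any list. Its score was 2.20, rank 4 of 1662 on the X. The combined list is not independent of the replicates, and how it was made from them is not given in the sources used here.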

How the data were processed

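H3K9me3 ChIP-seq and input libraries were made from adult Oregon-R heads, per the labels' protocols. The submitters' processing notes name Bowtie 0.12.7 as a tool, and the file headers give FlyBase release 5 as the build. The sources used here do not name the cluster caller, its threshold or the use made of the inputs. Each cluster carries the score the authors deposited, of unstated scale. Lists were read with Python 3.11.15 and numpy 2.4.6 and drawn with matplotlib 3.10.9; clusters running past a sequence end (2, 3 and 5 per list) were trimmed.

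Coverage was computed per library in 1 kb windows laid from the distal (telomere-side) end of each locus, and over flanks of 200 kb from which the bases of the other piRNA locus were removed. Clusters reaching a region by at least 1 bp were counted in it, so one crossing an end counts in locus and flank. Means ± SD are over 2 libraries. No test was run, because the loci and lists were chosen with earlier results of these data known. Regions named by position are the widest and highest-scoring cluster of each list per locus, clusters crossing an end, the 3 longest stretches called in neither replicate and the widest combined cluster of each flank; a few others, named for their absence from a list, were singled out after their values were seen. The coverage code was tested on simulated data and was correct in 200 of 200 simulated lists. RefSeq release 6 gave gene names and their order only.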

Additional observations from a re-analysis of the deposited data

How the results depend on the processing

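Each of the 6 differences in coverage was recomputed under other settings. Values from 1 replicate alone must lie within the SD of 2, and a setting that changed no base of a flank cannot move its value. Of the other 32 values, 14 stayed within the SD between replicates, 17 moved further and 1 reversed. That SD ran from 0.80 points for flamenco minus its flanks to 5.02 points for 20A minus its flanks. The counts thus depend on the spread between replicates as well as on the settings. Without clusters scoring below their list's median, 38C minus its flanks was 31.4 points, flamenco minus its flanks 30.3, flamenco minus 38C 16.3 and 38C minus 20A 18.3. With clusters of at least 3 kb, flamenco minus its flanks was 33.9, flamenco minus 20A 40.8 and 38C minus 20A 30.8. Joining clusters up to 1 kb apart gave 26.3 for 38C minus 20A. In the combined list 38C minus its flanks was 54.0, flamenco minus its flanks 32.6, flamenco minus 20A 43.3, flamenco minus 38C 1.69 and 38C minus 20A 41.7. With flanks of 100 kb and of 50 kb, 38C minus its flanks was 28.8 and 21.4, and flamenco minus its flanks 34.9 and 40.7. The sole reversal was 20A minus its flanks, -1.57 when flamenco was kept in the flank, which adds a densely covered locus to it. From each replicate alone, 20A minus its flanks was 5.40 in replicate 1 and 12.5 in replicate 2. The share of windows at least 50% covered moved by over 1.5 times in the combined list, in 20A (27.5%) and 38C (67.5%). No paired analysis was possible because the inputs, which share replicate numbers with the ChIP libraries, have no lists used here and no test was run. Depth is unknown, so whether an uncovered stretch lacks the mark cannot be told.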
